A study of Mus musculus with 16 samples.

Results

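Nodal is a secreted ligand of the TGF-beta family that signals through activin receptors and, with its co-receptor Cripto, through the transcription factors Smad2 and Smad3. Active Smads join Smad4 and bind DNA with partners such as Foxh1, and among the genes they switch on are Nodal itself and its secreted inhibitors Lefty1 and Lefty2, which forms a feedback loop. In the early embryo the loop patterns the epiblast and the left-right axis, and mouse embryonic stem cells (ESCs), pluripotent cells taken from the blastocyst, make and sense Nodal in culture. Described here are 10 genes of the pathway out of 35968 genes summed in the series: the ligand Nodal, the inhibitors Lefty1 and Lefty2, the co-receptor gene Tdgf1, the receptors Acvr1b and Acvr2b, the mediators Smad2, Smad3 and Foxh1, and the feedback inhibitor Smad7. The genes were chosen by name with results of these libraries known, Lefty1 and Lefty2 being among the largest falls seen, so their values are given as a description without p-values. All 10 passed the filter on low counts that left 18944 genes.

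The libraries were made from poly(A) RNA of mouse ESCs that were wild type (WT) or Dgcr8 knockout (KO). Dgcr8 encodes the partner of the nuclease Drosha, and together they cut the primary transcripts of most microRNAs. Cells of each genotype were kept in normal ESC culture or under mTOR inhibition, sampled at day 2 and labelled paused. Blocking mTOR, a kinase that couples growth to nutrients, puts ESCs in a slowed state used as a model of embryonic diapause. The 4 groups, WT normal, WT paused, KO normal and KO paused, had 4 libraries each. The labels do not say whether replicates were separate cultures, how many KO clones were used or whether both genotypes came from 1 parental line, so tests measure the spread between these libraries, and an effect of Dgcr8 loss cannot be told apart from other differences between the lines.

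Library totals were 88377380 to 116646028 estimated counts. In such bulk libraries, fewer cells of a type and less RNA per cell cannot be told apart. The 8 ESC markers summed to 3547 to 4966 TPM (a level scaled for transcript length and library size) and none of them was below 1 TPM in any group mean, while definitive endoderm markers summed to at most 2.223 TPM. The 4 formative and primed epiblast markers summed to 154.7 to 230.9 TPM in WT and 37.35 to 77.23 TPM in KO libraries, mostly Dnmt3b (group means of 156.5, 161.6, 31.63 and 29.44 TPM in WT normal, WT paused, KO normal and KO paused cells). Otx2 of the same list had 8.289, 25.94, 10.73 and 35.65 TPM, with both paused means above both normal ones. The others, Pou3f1 (4.773, 10.59, 2.706 and 1.857 TPM) and Fgf5 (0.2137, 0.3876, 0.04425 and 0.02753 TPM), were instead lowest in KO paused cells. Primitive endoderm markers summed to 13.02 to 22.88 TPM in WT and 6.311 to 11.53 TPM in KO libraries. The largest part was Dab2 (7.823, 9.303, 2.047 and 6.895 TPM in group means). Gata6, Gata4, Sox17 and Pdgfra also had smaller means in KO than WT cells in each culture. Sox7 (1.436, 1.44, 2.151 and 1.002 TPM) instead had its largest mean in KO normal cells. Neuroectoderm markers summed to 11.19 to 14.2 TPM in WT and 5.125 to 8.506 TPM in KO libraries. This lower sum was mostly Pax6 (7.068, 6.913, 0.9149 and 0.8843 TPM in group means). Sox1 had 1.384, 3.474, 1.824 and 3.06 TPM and Nes 3.963, 2.743, 4.756 and 1.746 TPM. Both had a larger mean in KO than WT cells in normal culture alone, where the libraries of the genotypes overlapped. Fibroblast markers summed to 9.762 to 13.25 TPM in WT and 21.68 to 31.2 TPM in KO libraries. Of these, 5 of 6 were below 1 TPM in every group, the collagens Col1a1, Col1a2 and Col3a1 among them. The remaining marker, Thy1 (10.64, 11.18, 29.46 and 22.74 TPM in group means), made up most of the sum. Col1a2, Col3a1 and Dcn instead had smaller means in KO than WT cells in each culture. Col1a1 had a larger mean in KO cells in each culture, and Lum in paused culture alone. Trophoblast markers summed to 15.53 to 25.39 TPM in WT normal, 21.79 to 29.73 in WT paused, 19.83 to 21.79 in KO normal and 33.6 to 44.32 TPM in KO paused libraries, with Cdx2, Elf5 and Hand1 below 1 TPM in every group. Most of that sum was Krt8 (10.51, 13.1, 11.84 and 19.6 TPM in group means) and Krt18 (8.117, 11.4, 8.453 and 18.14 TPM). Cdx2 (0.5829, 0.4659, 0.2574 and 0.09776 TPM) and Hand1 (0.7261, 0.4759, 0.3883 and 0.1538) were instead lowest in KO paused cells. So was Elf5 (0.1625, 0.1003, 0.138 and 0.08546 TPM). Markers of mesoderm and primitive streak summed to 3.009 to 4.915, 8.437 to 9.862, 3.635 to 5.133 and 5.626 to 6.278 TPM. No marker was at 0 in a group mean, and the part of these markers in the results below was not tested. Dgcr8 itself was higher in KO libraries (173.2 to 256.1 CPM, counts scaled for library size only) than in WT libraries (45.28 to 56.22 CPM). The labels do not give the deleted part, and this level was not used as a check of the genotype. In WT normal, WT paused and KO normal cells, replicates 1 and 2 stood apart from replicates 3 and 4: the median chi-square over genes ranged from 1.214 to 2.45 within these pairs and from 3.061 to 10.577 across them. KO paused libraries divided otherwise, replicates 1 and 3 against 2 and 4, with 2.141 and 1.955 within and 2.818 to 4.276 across these pairs.

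Since KO cells lack the canonical route to microRNAs, the seed matches of microRNA families abundant in ESCs were read in the 3′ UTR of each gene's transcript with the highest estimated count (GENCODE M21). Mature sequences are from RefSeq (GRCm38.p6) and their seed, bases 2 to 8, is in capitals. The first 4, from the clusters on chromosome 7 (mmu-miR-294-3p at 3220691 to 3220712, plus strand) and chromosome 3 (mmu-miR-302b-3p at 127545275 to 127545297, plus strand), share 1 seed. The fifth, also of the chromosome 7 cluster, differs in the last base of the seed, and the sixth is of another family whose seed is shifted by a base.
mmu-miR-291a-3p: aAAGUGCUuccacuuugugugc
mmu-miR-294-3p: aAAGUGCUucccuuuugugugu
mmu-miR-295-3p: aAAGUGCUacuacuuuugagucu
mmu-miR-302b-3p: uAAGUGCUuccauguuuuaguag
mmu-miR-290a-3p: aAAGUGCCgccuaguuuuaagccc
mmu-miR-17-5p: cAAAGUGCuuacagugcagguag

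Matches of 7 bases were searched on the transcript strand only. For the first 4 microRNAs the match is AGCACTT. That of mmu-miR-290a-3p is GGCACTT. For mmu-miR-17-5p it is GCACTTT, which can overlap the first by all but 1 base. The secreted proteins of the loop each had 1 match. In Lefty1 it lay at base 238 of a 3′ UTR of 425 bases (chr1:180938213-180938219, plus strand, GRCm38), in Lefty2 at base 104 of 1290 (chr1:180897917-180897923, plus strand), and in Nodal at base 595 of 702 (chr10:61425231-61425237, plus strand). The matches are in capitals with 11 bases on either side.
Lefty1: actgtatgcgaAGCACTTacatgtataga
Lefty2: cacccagtttaAGCACTTacatgggtaaa
Nodal: ccagagaggtgGGCACTTgtccaagaggg

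Lefty1 and Lefty2 carry the match of the seed shared by the first 4 microRNAs and Nodal that of miR-290a-3p. Among the longest 3′ UTRs of 16759 genes, 17.4% held AGCACTT, 9.7% GGCACTT and 13.9% GCACTTT, and 27.5% held any of them. Of genes with 3′ UTRs of like length, 7.5% held a match for Lefty1, 23.9% for Lefty2 and 13.2% for Nodal. Smad2 had 3 matches of AGCACTT, 2 of which overlap a GCACTTT, in a 3′ UTR of 6233 bases, where 74.3% of genes of like length held a match. Smad7 had 1 GCACTTT, where 28.6% of genes of like length held a match. No match lay in the windows read for Tdgf1, Smad3, Foxh1, Acvr1b and Acvr2b. Of genes of like length, 20.5%, 52.0%, 1.5%, 45.7% and 27.8% held a match, in that order. A match is a description of sequence and not a tested site.

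In WT cells pausing moved the receptors and Smad7 up by about the same factor and left the Lefty genes spread around their normal level, whereas in KO cells both Lefty genes fell more than 6-fold while Nodal rose. Of the 10 genes, 6 were higher and 0 lower on pausing in WT cells, where 33.3% of all genes tested were called higher and 27.5% lower at an adjusted p of 0.05. In KO cells 4 were higher and 4 lower, against 34.4% and 32.8% of all genes. For the interaction, the pausing response of KO minus that of WT cells, 1 was higher and 6 were lower, against 17.4% and 24.5%. Loss of Dgcr8 went with 7 higher and 2 lower in normal culture, against 34.1% and 34.1%, and with 4 higher and 5 lower in paused culture, against 30.8% and 34.5%. The median log2 fold change of the 10 genes was 0.365, 0.091, −0.558, 0.709 and −0.184 in the 5 contrasts in that order, and over all genes tested it was 0.038, 0.024, −0.029, −0.026 and −0.034. The contrasts share groups, so their counts are not independent.

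**Figure D1:**
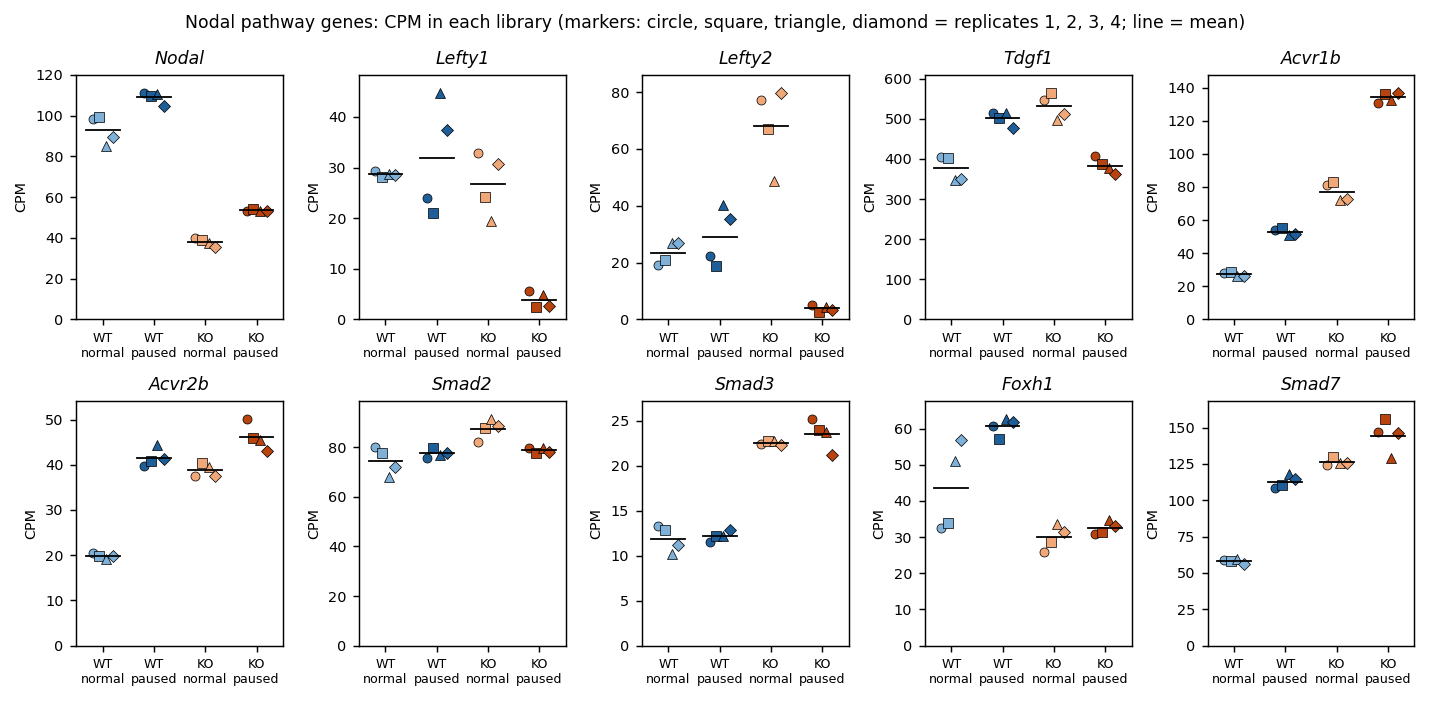
Level of each of the 10 genes in each library, in CPM on a linear axis from 0, with 1 panel per gene, 4 groups of 4 libraries, marker shapes for the replicate numbers and a line at the group mean. Lefty1 and Lefty2 are at 2.398 to 5.692 CPM in the 4 KO paused libraries, below every other library.

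Nodal (ENSMUSG00000037171.6, chromosome 10, 61417972 to 61425338, plus strand, GRCm38) was lower in KO cells and higher in paused cells. Its level was 98.26, 99.05, 84.99 and 89.45 CPM in WT normal libraries (replicates 1 to 4, as in all such lists) and 111.2, 109.5, 110.5 and 104.8 CPM in WT paused libraries. KO normal libraries had 39.76, 39.12, 37.56 and 35.63 CPM and KO paused libraries 53.35, 54.20, 53.08 and 53.19 CPM. No library of 1 group reached the range of another. The log2 fold change on pausing was 0.23 ± 0.05 (SE) in WT and 0.49 ± 0.05 in KO cells, and the difference of the responses was 0.26 ± 0.07. Loss of Dgcr8 went with a change of −1.29 ± 0.05 in normal and −1.03 ± 0.05 in paused culture, a level 2.44 and 2.04 times lower. All 5 passed the threshold.

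Lefty1 (ENSMUSG00000038793.8, chromosome 1, 180935022 to 180938400, plus strand), which binds and blocks Nodal and its co-receptor, was at a like level in 3 of the 4 groups and low in the last. WT normal libraries had 29.32, 28.19, 28.80 and 28.50 CPM and WT paused libraries 23.99, 21.02, 44.80 and 37.51 CPM. KO normal libraries had 32.93, 24.09, 19.41 and 30.65 CPM and KO paused libraries 5.692, 2.398, 4.854 and 2.628 CPM, which rest on 259 to 528 counts each. The 4 KO paused libraries lay below all 12 others, and the other 3 groups overlapped. The log2 fold change on pausing was 0.15 ± 0.27 in WT cells (95% interval −0.386 to 0.684, not past the threshold) and −2.79 ± 0.31 in KO cells, and the difference was −2.94 ± 0.41. KO over WT was −0.10 ± 0.27 in normal culture (95% interval −0.638 to 0.435, not past the threshold) and −3.04 ± 0.31 in paused culture.

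Lefty2 (ENSMUSG00000066652.5, chromosome 1, 180893108 to 180899103, plus strand) had the widest range of the 10 genes relative to its level. Its level was 19.25, 20.75, 26.83 and 26.89 CPM in WT normal libraries, and WT paused libraries had 22.13, 18.75, 40.09 and 35.45 CPM. KO normal libraries had 77.36, 66.93, 48.73 and 79.78 CPM and KO paused libraries 5.099, 2.648, 4.484 and 3.379 CPM. The KO normal libraries were the 4 highest of all 16 and the KO paused libraries the 4 lowest. On pausing it fell 17.6-fold in KO cells (log2 −4.14 ± 0.29), while in WT cells the log2 fold change was 0.31 ± 0.25 (95% interval −0.182 to 0.809, not past the threshold). The difference of the responses was −4.45 ± 0.38. Loss of Dgcr8 thus went with a rise of 1.54 ± 0.26 in normal culture and a fall of 2.91 ± 0.28 on the log2 scale in paused culture.

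In WT paused cells both Lefty genes followed the division of the replicates: replicates 1 and 2 had 18.75 to 23.99 CPM and replicates 3 and 4 had 35.45 to 44.80 CPM. With replicates 1 and 2 alone the WT response of Lefty1 was −0.35 and that of Lefty2 0.03 on the log2 scale, and with replicates 3 and 4 alone 0.52 and 0.48. The fall in KO cells was −2.86 and −2.73 for Lefty1 and −4.26 and −4.02 for Lefty2 in the same subsets. KO over WT in paused culture was −2.52 and −3.44 for Lefty1 and −2.44 and −3.25 for Lefty2, and in normal culture it was 1.85 and 1.253 for Lefty2. The interaction of Lefty1 was −2.51 and −3.24. In KO paused cells both genes followed the other division: replicates 1 and 3 had 4.484 to 5.692 CPM and replicates 2 and 4 had 2.398 to 3.379 CPM. Summed trophoblast markers, given above, lay above those of the 12 other libraries in the 4 KO paused libraries. That sum was mostly Krt8 and Krt18, while Cdx2, Elf5 and Hand1 were lowest in KO paused cells. The part of these markers in the fall was not tested. Over the 16 libraries log2 CPM of Lefty1 and Lefty2 had a Pearson correlation of 0.90, and deviations from the group means one of 0.908, as a description of 2 genes that share sequence and libraries.

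The 2 genes are similar copies, with 91.9% identity over 1107 coding bases (1017 of 1107), 35918 bases apart. Of the 31-base words of Lefty1, 25.03% also occur in Lefty2. The estimated counts divide reads that fit both copies between them, and the error of that division was not measured. The sum of both does not depend on the division. It was 48.57, 48.94, 55.63 and 55.38 CPM in WT normal and 46.12, 39.77, 84.9 and 72.96 CPM in WT paused libraries. KO normal libraries held 110.3, 91.01, 68.14 and 110.4 CPM of it and KO paused libraries 10.79, 5.045, 9.338 and 6.008 CPM, a mean 12.18 times lower.

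Set against Nodal on a scale per length, the summed TPM of both inhibitors was 0.61 to 0.797 of the TPM of Nodal in WT normal and 0.474 to 0.948 in WT paused libraries. It was 2.01 to 3.37 times that of Nodal in KO normal libraries and 0.116 to 0.247 of it in KO paused libraries. The KO groups lay on either side of both WT groups, without overlap. The copies also differed in their balance: the TPM ratio of Lefty1 to Lefty2 was 1.56 to 2.13 in WT normal, 1.39 to 1.54 in WT paused, 0.525 to 0.616 in KO normal and 1.04 to 1.44 in KO paused libraries. Lefty2 exceeded Lefty1 in the 4 KO normal libraries alone.

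**Figure D2:**
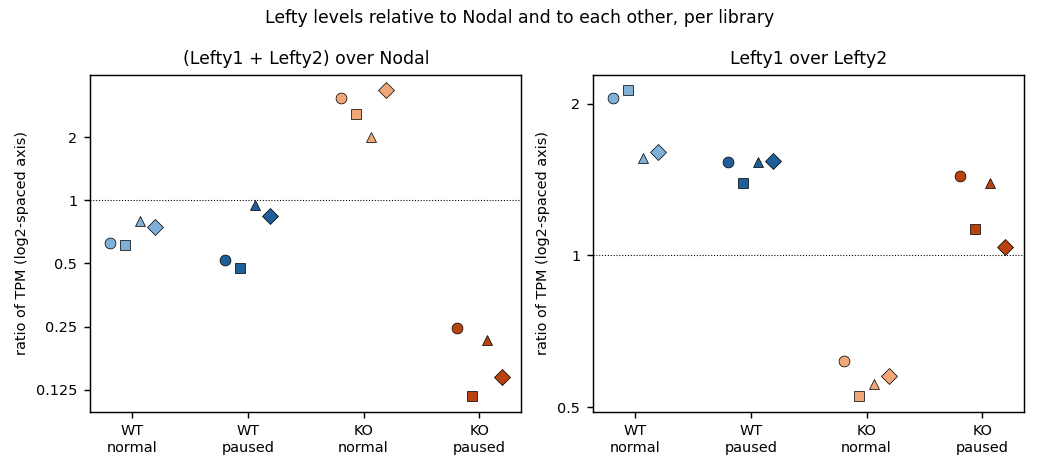
Ratio of summed Lefty1 and Lefty2 TPM to Nodal TPM (left) and of Lefty1 to Lefty2 TPM (right) in each library, on log-spaced axes with a dotted line at a ratio of 1 and marker shapes for the replicate numbers. The left ratio is 2.01 to 3.37 in KO normal and 0.116 to 0.247 in KO paused libraries, and the right one is below 1 in KO normal libraries.

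Tdgf1 (ENSMUSG00000032494.12, chromosome 9, 110939603 to 110946158, minus strand) encodes Cripto, the membrane-bound co-receptor for Nodal, and its response to pausing had opposite signs in the genotypes. WT normal libraries had 405.9, 402.5, 347.2 and 350.0 CPM and WT paused libraries 515.7, 501.9, 514.6 and 477.7 CPM. KO normal libraries had 547.7, 565.2, 497.7 and 513.1 CPM and KO paused libraries 407.4, 387.2, 376.9 and 361.2 CPM. Within each genotype the normal and paused libraries did not overlap. The log2 fold change on pausing was 0.42 ± 0.06 in WT and −0.47 ± 0.06 in KO cells, with a difference of −0.89 ± 0.08. KO over WT was 0.50 ± 0.06 in normal and −0.39 ± 0.06 in paused culture. The transcript shares 17.35% of its 31-base words with the processed pseudogene Tdgf1-ps1, listed at 2631.9 to 5111.1 counts. With both added, the paused mean was 1.344 times the normal mean in WT and 0.728 times in KO cells.

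The type I receptor Acvr1b (ENSMUSG00000000532.11, chromosome 15, 101174067 to 101213684, plus strand), which phosphorylates Smad2 and Smad3, was ordered from WT normal to KO paused without overlap. In WT cells it stood at 28.04, 28.44, 26.27 and 26.30 CPM in normal and at 53.83, 54.92, 50.99 and 51.49 CPM in paused libraries. In KO cells the values were 81.13, 82.87, 71.95 and 72.97 CPM for normal and 130.9, 136.3, 132.3 and 137.0 CPM for paused libraries. It was higher in paused than normal cells by 0.95 ± 0.05 in WT and 0.80 ± 0.05 in KO cells, and higher in KO than WT cells by 1.502 ± 0.048 in normal and 1.35 ± 0.05 in paused culture. The difference of the pausing responses was −0.16 ± 0.07 (95% interval −0.286 to −0.028), not past the threshold, but it passed with length-scaled counts (−0.18), with a term for the division of the replicates (−0.155), with replicates 1 and 2 alone (−0.24), and without KO normal replicate 3 (−0.18) or 4 (−0.19).

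The type II receptor Acvr2b (ENSMUSG00000061393.14, chromosome 9, 119402118 to 119434995, plus strand), which binds the ligand and activates the type I receptor, was low in WT normal cells alone. WT normal libraries had 20.39, 19.83, 19.25 and 19.77 CPM and WT paused libraries 39.80, 40.82, 44.29 and 41.20 CPM. KO normal libraries had 37.50, 40.36, 39.59 and 37.51 CPM and KO paused libraries 50.12, 45.97, 45.37 and 43.07 CPM. The WT paused libraries overlapped both KO groups, which were apart from each other. Pausing raised it by 1.07 ± 0.05 in WT and 0.25 ± 0.05 in KO cells, a difference of −0.82 ± 0.07. KO over WT was 0.97 ± 0.05 in normal and 0.15 ± 0.05 in paused culture, the last with 0.25 from replicates 1 and 2 and 0.06 from replicates 3 and 4 alone, which did not pass the threshold.

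Smad2 (ENSMUSG00000024563.16, chromosome 18, 76241580 to 76310963, plus strand), a receptor-activated mediator, had group means within 74.4 to 87.4 CPM. In WT normal libraries it had 80.13, 77.61, 67.84 and 72.01 CPM and in WT paused libraries 75.57, 79.78, 76.99 and 77.55 CPM. For KO cells these were 82.17, 87.78, 91.32 and 88.33 CPM in normal and 79.74, 77.64, 79.70 and 78.03 CPM in paused libraries. KO normal libraries were above all others. The log2 fold change was 0.06 ± 0.04 on pausing in WT cells (95% interval −0.03 to 0.147) and 0.02 ± 0.04 for Dgcr8 loss in paused culture (95% interval −0.064 to 0.112), neither past the threshold. It fell by 0.15 ± 0.04 on pausing in KO cells and was higher by 0.23 ± 0.04 in KO than WT cells in normal culture, with 0.11 from replicates 1 and 2 and 0.36 from replicates 3 and 4 alone. The difference of the pausing responses was −0.21 ± 0.06, which did not pass without WT normal replicate 3 (−0.126), with length-scaled counts (−0.132) or with replicates 1 and 2 alone (−0.092).

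Smad3 (ENSMUSG00000032402.12, chromosome 9, 63646767 to 63757994, minus strand), the other receptor-activated mediator, had means of 11.91 and 12.2 CPM in normal and paused WT and 22.57 and 23.55 CPM in KO cells. It stood at 13.32, 12.84, 10.23 and 11.24 CPM in WT normal and 11.52, 12.15, 12.22 and 12.90 CPM in WT paused libraries. All 8 KO libraries were higher, with 22.37, 22.75, 22.80 and 22.36 CPM in KO normal and 25.20, 24.01, 23.78 and 21.22 CPM in KO paused libraries. KO over WT was 0.92 ± 0.07 in normal and 0.95 ± 0.07 in paused culture. On pausing the log2 fold change was 0.03 ± 0.07 in WT (95% interval −0.107 to 0.176) and 0.06 ± 0.07 in KO cells (−0.075 to 0.198), neither past the threshold. With replicates 3 and 4 alone the WT value was 0.22 and passed, and with replicates 1 and 2 alone it was −0.14. The interaction was 0.03 ± 0.10, not past the threshold, with 0.27 from replicates 1 and 2, which passed, and −0.22 from replicates 3 and 4. Coding sequences of Smad2 and Smad3 were 77.1% identical, and neither shared more than 0.2% of its 31-base words with other genes.

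Foxh1 (ENSMUSG00000033837.5, chromosome 15, 76668225 to 76669948, minus strand), the DNA-binding partner of Smads at Nodal target genes, was highest in WT paused cells. WT normal libraries had 32.43, 33.84, 51.10 and 56.82 CPM and WT paused libraries 60.82, 57.09, 62.65 and 61.87 CPM. The KO normal level was 25.91, 28.69, 33.73 and 31.47 CPM and the KO paused level 30.95, 31.44, 34.74 and 33.17 CPM. WT normal libraries followed the division of the replicates, and the lower pair overlapped KO normal cells. The rise on pausing in WT cells was 0.48 ± 0.15 on the log2 scale, with 0.83 from replicates 1 and 2 and 0.20 from replicates 3 and 4 alone. In KO cells it was 0.12 ± 0.15 (95% interval −0.172 to 0.413, not past the threshold). KO over WT was −0.54 ± 0.15 in normal culture, with −0.28 and −0.73 in the same subsets, and −0.90 ± 0.15 in paused culture. The difference of the pausing responses, −0.36 ± 0.21, did not pass the threshold, but it did with replicates 1 and 2 alone (−0.64), without WT normal replicate 4 (−0.51) and with a term for the division of the replicates (−0.38).

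Smad7 (ENSMUSG00000025880.11, chromosome 18, 75367529 to 75395935, plus strand) blocks the receptors from inside the cell and is switched on by several TGF-beta signals. WT normal libraries had 58.72, 58.53, 59.62 and 56.13 CPM and WT paused libraries 108.1, 110.6, 118.0 and 114.7 CPM. The KO normal values were 124.0, 129.9, 125.3 and 125.8 CPM and the KO paused values 146.7, 155.9, 129.2 and 146.0 CPM. WT normal cells were the low group, as for Acvr2b, and of the KO paused libraries only replicate 3 reached down to the KO normal range. The log2 fold change on pausing was 0.95 ± 0.05 in WT and 0.20 ± 0.05 in KO cells, with a difference of −0.76 ± 0.06. KO over WT was 1.12 ± 0.05 in normal and 0.36 ± 0.05 in paused culture.

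**Figure D3:**
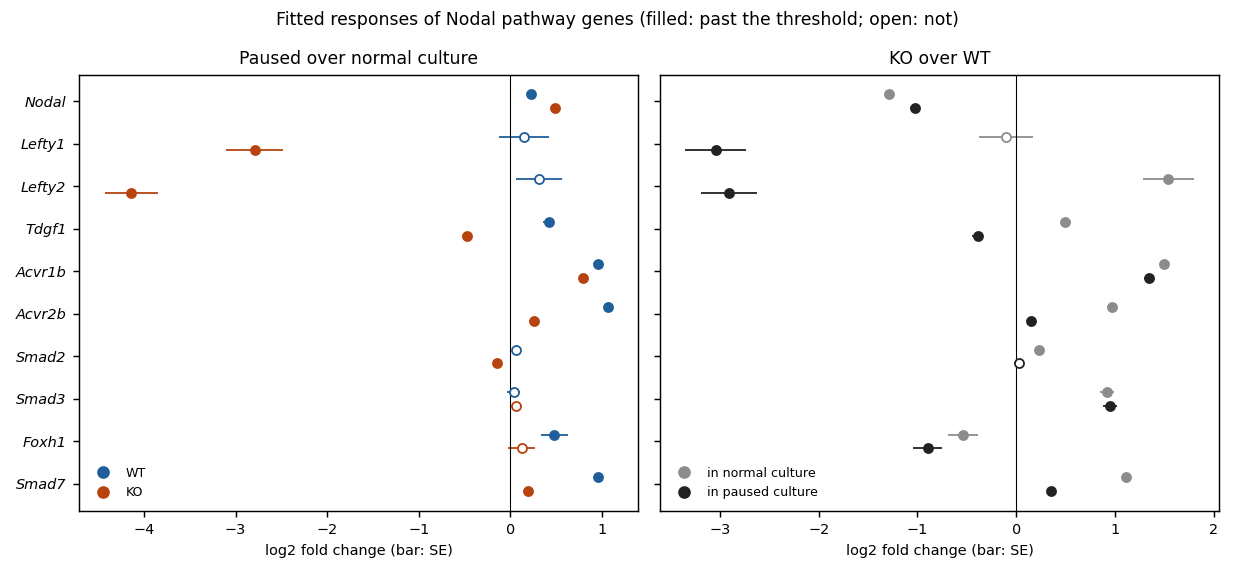
Fitted log2 fold changes of the 10 genes with SE bars, for paused over normal culture in WT and KO cells (left) and for KO over WT cells in each culture (right), from 4 libraries per group; filled points passed the threshold and open ones did not. Lefty1 and Lefty2 stand at −2.79 and −4.14 for pausing in KO cells, and every other point of the left panel lies between −0.47 and 1.07.

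Levels between genes can be compared per length, in TPM. Tdgf1 was the highest of the 10 in each group, with means of 308, 476, 454 and 380 TPM in WT normal, WT paused, KO normal and KO paused cells. TPM are not TMM-scaled and can order the groups otherwise than CPM. By mean CPM Tdgf1 was highest in KO normal cells (530.9, against 502.5 in WT paused cells). In WT normal cells Nodal (60.7 ± 6.13 TPM, SD, n = 4) and Foxh1 (49.3 ± 14.0) came next and overlapped, and below them Smad2 (33.8), Lefty1 (26.9), Smad7 (20.4), Lefty2 (14.9), Acvr2b (10.2), Acvr1b (7.98) and Smad3 (3.46) were each apart from the next. Smad3 was the lowest in 3 groups. In KO paused cells the order below Tdgf1 was Smad7 (65.2 ± 5.65), Acvr1b (48.8), Foxh1 (45.2), Nodal (43.3), Smad2 (42.3), Acvr2b (28.8) and Smad3 (7.83 ± 0.753), with Acvr1b, Foxh1, Nodal and Smad2 overlapping each with the next. Lefty1 (4.39 ± 1.71 TPM) and Lefty2 (3.42 ± 0.849 TPM) then lay at the bottom and overlapped.

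The genes were chosen on gene levels and not on the make-up of their transcripts, so shares of transcripts were tested. Smad2 and Acvr2b each had 3 transcripts with intermediate shares, which gave 24 tests over 4 pairs of groups. Smad2-205, with a 3′ UTR of 6233 bases, was the only Smad2 transcript read for the matches above. It took 46.09, 42.8, 43.02 and 44.06% of the estimated counts of the gene in WT normal and 53.28, 53.95, 53.07 and 54.67% in WT paused libraries. In KO cells its share was 43.96% ± 1.17 (SD, n = 4) in normal and 48.61% ± 1.59 in paused culture. The paused mean exceeded the normal mean by 9.75 and 4.65 percentage points, with 4 of 4 paused libraries above every normal library (exact permutation test, two-sided, p = 0.0286 for each, the smallest that 4 against 4 can give, and 0.0686 after Benjamini-Hochberg adjustment over the 24 tests, so neither passed). A difference at this smallest p can pass only if most of the 24 tests reach it too. The adjusted threshold therefore cannot decide for a single transcript.

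The shorter Smad2-201, with a 3′ UTR of 564 bases that was not read for matches, went the other way. Its share went from 41.67% to 36.1% in WT and from 42.17% to 38.41% in KO cells (exact permutation test, p = 0.0286 for each, 0.0686 adjusted). In paused culture the share of Smad2-205 differed by −5.13 percentage points between KO and WT cells (same p-values), and in normal culture the difference was −0.03 points (exact permutation p = 0.9714). As shares of TPM, which give short transcripts more weight, the pausing differences of Smad2-205 were 5.89 and 2.6 points and those of Smad2-201 were −0.81 and −1.84 points. No Acvr2b transcript passed the adjusted threshold either, under the same limit. The depth of these shares is 6085 to 9618 counts of Smad2 per library, and the split between transcripts is itself an estimate.

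**Figure D4:**
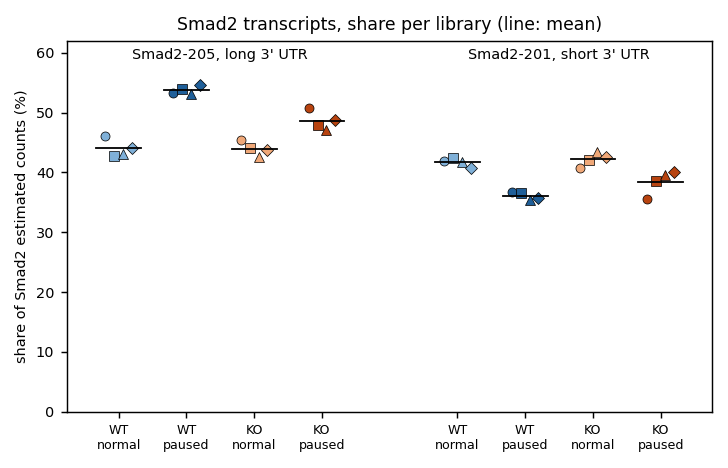
Share of the estimated counts of Smad2 held by the transcripts Smad2-205 and Smad2-201, in percent, for each library of the 4 groups with a line at the mean and marker shapes for the replicate numbers. Mean shares of Smad2-205 are 43.99 and 53.74% in normal and paused WT cells and 43.96 and 48.61% in KO cells, and those of Smad2-201 are 41.67, 36.1, 42.17 and 38.41%. No difference passed the adjusted threshold, which a single transcript could not pass alone with so few libraries per group.

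The wider pathway was read from 32 listed genes in 5 groups, of which 29 passed the filter. Inhba, Acvr1c and the secreted inhibitor Cer1 did not, and Cer1 had 1 to 13 counts per library. Of the 29, 14 were higher and 6 lower on pausing in WT cells, beside 33.3% and 27.5% of all genes, and 11 higher and 12 lower in KO cells, beside 34.4% and 32.8%. The difference of the responses was positive for 3 and negative for 10, beside 17.4% and 24.5%. Dgcr8 loss went with 12 higher and 10 lower in normal culture, beside 34.1% and 34.1%, and 11 higher and 9 lower in paused culture, beside 30.8% and 34.5%. The lists below are short, and their counts are read against the same shares.

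Among 5 ligands and convertases, 3 were higher and 1 lower on pausing in WT cells (33.3% and 27.5% of all genes) and 2 were higher and 3 lower in KO cells (34.4% and 32.8%). The ligand Gdf3 (110.7, 129.3, 82.55 and 127.2 CPM in group means, in the order WT normal, WT paused, KO normal and KO paused) rose by 0.22 ± 0.06 in WT and 0.62 ± 0.06 in KO cells on the log2 scale, a difference of 0.40 ± 0.08 (adjusted p = 0.00044). Furin, a protease that cleaves the Nodal precursor (8.386, 10.29, 19.93 and 23.44 CPM), was higher in KO than WT cells by 1.249 ± 0.078 in normal (adjusted p = 8.2e-11) and 1.19 ± 0.08 in paused culture (adjusted p = 1.8e-10). Pcsk6, the other convertase, rose by 0.34 ± 0.07 in WT and fell by 0.29 ± 0.07 in KO cells on pausing, a difference of −0.63 ± 0.10 (adjusted p = 8.2e-05). With replicates 1 and 2 alone its WT rise was 0.59 and the difference −0.86, and with replicates 3 and 4 alone they were 0.10 and −0.41. Inhbb, which encodes a subunit of activin B, a ligand of the same receptors, had 68.78, 79.16, 204.8 and 167.5 CPM and was higher in KO than WT cells, with 1.57 ± 0.11 in normal (adjusted p = 6.7e-09) and 1.081 ± 0.112 in paused culture (adjusted p = 5.4e-07).

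Among 4 further receptors and co-receptors, 3 were higher and 0 lower on pausing in WT cells (33.3% and 27.5% of all genes) and 3 higher and 1 lower in KO cells (34.4% and 32.8%). Acvr2a, the type II receptor akin to Acvr2b, rose by 0.40 ± 0.05 in WT (adjusted p = 1.6e-06) and 0.46 ± 0.05 in KO cells (adjusted p = 2.7e-07). Tgfbr2, the type II receptor for TGF-beta itself, was low (0.6401, 1.02, 3.399 and 2.653 CPM) and higher in KO than WT cells by 2.41 ± 0.14 in normal culture (adjusted p = 5.1e-11) and 1.38 ± 0.14 in paused culture (adjusted p = 6.5e-08). Of 3 other secreted inhibitors, 0 were higher and 2 lower on pausing in WT and 2 higher and 1 lower in KO cells, beside the same shares. Fst, which encodes follistatin, a protein that traps activin, had 5.501, 4.167, 5.229 and 9.57 CPM and rose by 0.87 ± 0.14 on pausing in KO cells (adjusted p = 3e-05), opposite in direction to both Lefty genes. Fstl3, a relative of follistatin, fell by 1.48 ± 0.22 in WT (adjusted p = 1e-05) and by 0.90 ± 0.22 in KO cells (adjusted p = 0.0016), the last with −1.21 from replicates 1 and 2 and −0.57, which did not pass, from replicates 3 and 4 alone.

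Of 11 mediators and regulators, 6 were higher and 2 lower on pausing in WT and 3 higher and 5 lower in KO cells, beside 33.3% and 27.5% of all genes in WT and 34.4% and 32.8% in KO cells. The interaction was positive for 0 and negative for 5, beside 17.4% and 24.5%. Smad4, the shared partner of the Smads, rose by 0.23 ± 0.03 in WT (72.58 to 85.34 CPM) and by 0.13 ± 0.03 in KO cells (82.17 to 90.14 CPM). The co-repressor Ski rose by 0.68 ± 0.05 in WT cells (98.54 to 158.2 CPM) and had 153.2 and 151.9 CPM in KO cells, a difference of −0.70 ± 0.07 (adjusted p = 4.5e-07). Tgif2, another repressor of Smad-driven genes, rose by 0.47 ± 0.05 in WT and fell by 0.27 ± 0.05 in KO cells, a difference of −0.74 ± 0.07 (adjusted p = 1.2e-07). Its relative Tgif1 rose by 0.65 ± 0.04 in WT (adjusted p = 2.5e-11) and by 0.50 ± 0.03 in KO cells (adjusted p = 5e-10). Skil, a co-repressor that is itself a target of Smads (139.2, 88.28, 91.12 and 40.86 CPM), fell on pausing by 0.66 ± 0.16 in WT (adjusted p = 0.002) and by 1.16 ± 0.16 in KO cells (adjusted p = 1.4e-05). The WT value was −1.09 from replicates 1 and 2 and −0.18 from replicates 3 and 4 alone.

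Of 6 target genes of the pathway, 2 were higher and 1 lower on pausing in WT (33.3% and 27.5% of all genes) and 1 higher and 2 lower in KO cells (34.4% and 32.8%). Pmepa1, a target that restrains TGF-beta signals, had 20.25, 35.56, 53.4 and 50.2 CPM and rose by 0.81 ± 0.07 on pausing in WT cells, with a difference of −0.90 ± 0.10 (adjusted p = 1.7e-06), a pattern near those of Smad7 and Acvr2b. Gsc, a homeobox gene of the primitive streak, was low throughout (0.4467, 0.5548, 0.1329 and 0.8051 CPM) and rose by 2.58 ± 0.28 on pausing in KO cells (adjusted p = 1.6e-07), with 2.98 and 2.30 from replicates 1 and 2 and replicates 3 and 4 alone. Mixl1, another primitive streak gene, fell on pausing in both genotypes, with −0.75 ± 0.16 in WT (adjusted p = 0.00046) and fell by 1.076 ± 0.144 in KO cells (adjusted p = 2.5e-06), and the WT value did not pass with replicates 1 and 2 alone (−0.59). Foxa2, an endoderm gene, was lower in KO cells, with −2.87 ± 0.27 in normal and −2.61 ± 0.27 in paused culture (adjusted p = 2.8e-08 and 9.9e-08) at 0.1277 to 0.9364 CPM in group means.

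**Figure D5:**
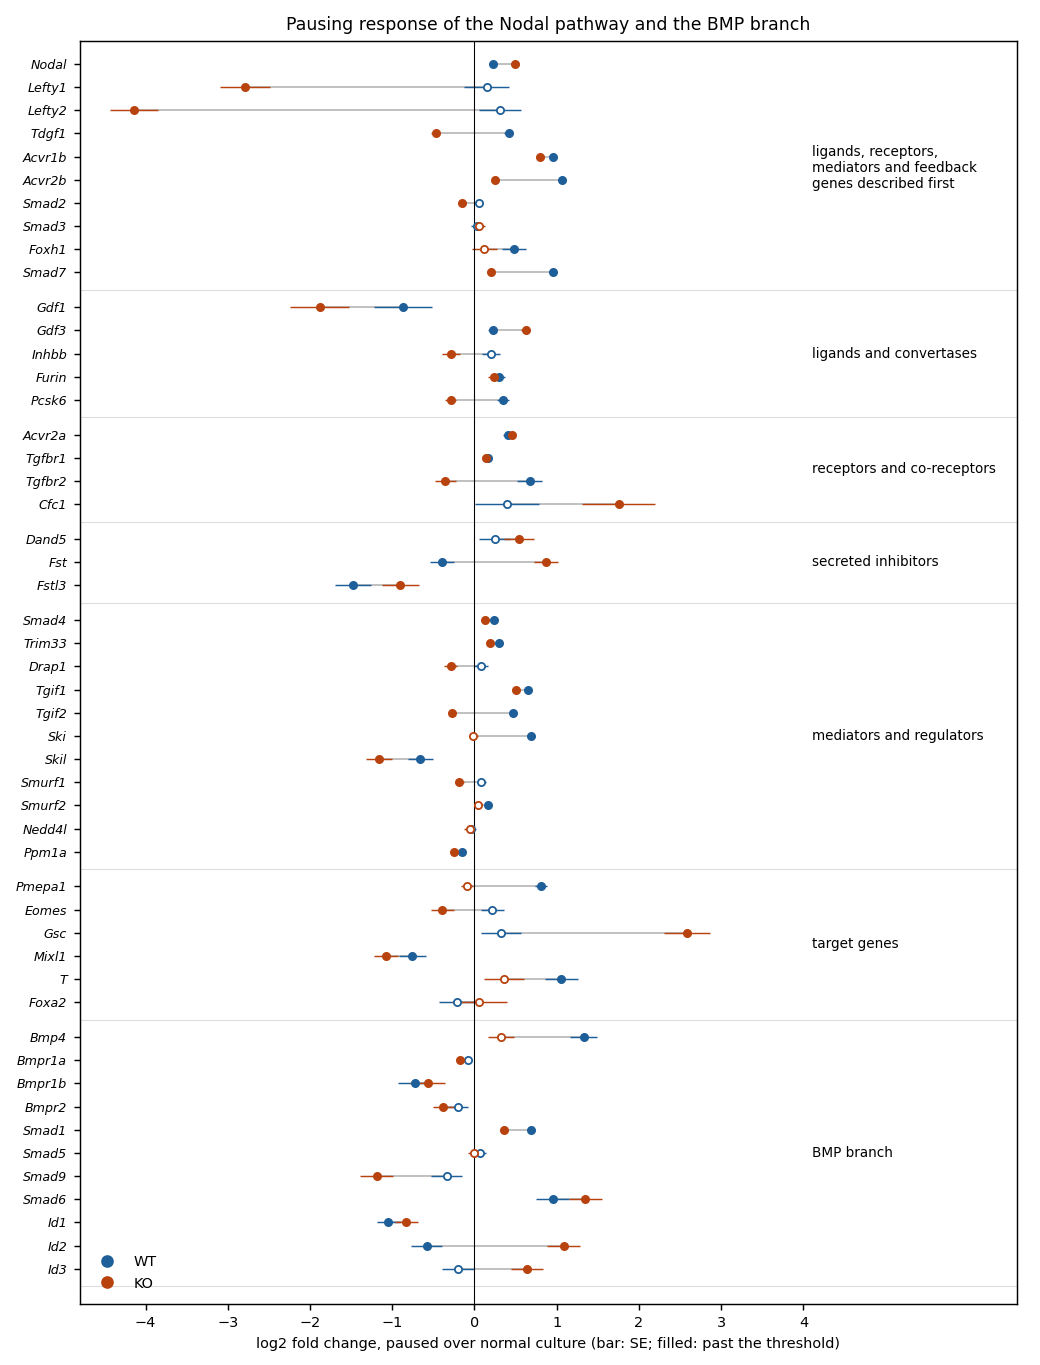
Fitted log2 fold change on pausing with SE bars for the 10 genes, the 29 other tested pathway genes and 11 genes of the BMP branch, with WT and KO values joined by a grey line; filled points passed the threshold. The longest lines among the genes plotted are those of Lefty2 and Lefty1, with KO values of −4.14 and −2.79.

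The BMP branch, which shares Smad4 with Nodal but uses other receptors and Smads, was read for comparison. Of 11 genes, 3 were higher and 3 lower on pausing in WT (33.3% and 27.5% of all genes) and 4 higher and 5 lower in KO cells (34.4% and 32.8%). Bmp4, its ligand, had 15.91, 39.87, 63.77 and 79.77 CPM and rose by 1.33 ± 0.16 on pausing in WT cells (adjusted p = 4.3e-06), with a difference between genotypes of −1.005 ± 0.222 (adjusted p = 0.0023). From replicates 1 and 2 alone these were 1.89 and −1.57, and from replicates 3 and 4 alone 0.85 and −0.53. Its target Id1 (76.97, 37.26, 25.8 and 14.53 CPM) fell on pausing by 1.05 ± 0.14 in WT (adjusted p = 8e-06) and by 0.83 ± 0.14 in KO cells (adjusted p = 9.8e-05). Id2, a target of the same kind, fell by 0.58 ± 0.19 in WT and rose by 1.085 ± 0.198 in KO cells (difference 1.67 ± 0.27, adjusted p = 0.00023), and the WT fall did not pass without WT normal replicate 4 (−0.50). The KO rise was 1.48 and 0.81 and the difference 2.08 and 1.39 from replicates 1 and 2 and replicates 3 and 4 alone.

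Genes with the most similar profile over the 16 libraries were ranked by Pearson correlation of log2 CPM among 11282 protein-coding genes, as a description in which the 4 groups supply most of the spread. For Lefty1 these were Dnmt3a (r = 0.976; 179.6, 178.6, 193.1 and 77.84 CPM), Cemip2 (0.975), Lmnb2 (0.974), Ptprj (0.973) and Rnf145 (0.969). Dnmt3a encodes a de novo DNA methyltransferase, and like Lefty1 it was level in 3 groups and lower in KO paused cells, by a smaller factor. For Lefty2 they were Marcksl1 (r = 0.975; 286.4, 285.9, 393.2 and 158 CPM), Arhgdig (0.968), Dgkz (0.965), Grhl1 (0.962) and Socs1 (0.961), all highest in KO normal and lowest in KO paused cells. For Nodal they were Catip (r = 0.993; 13.73, 18.82, 0.9599 and 2.836 CPM), Zwint (0.991), Dll1 (0.987), Papolb (0.986) and Ap1s3 (0.986), lower in both KO groups and higher in paused than normal cells of each genotype.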

How the data were processed

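Per the submitters' processing notes the authors quantified poly(A) RNA-seq reads with kallisto on GRCm38; the version is not given in the sources used here. Each library's deposited table lists, per the file headers, an estimated count, a TPM and an effective length for every transcript. Of 118489 transcripts, 116728 matched GENCODE M21; the rest, with 0.656% to 0.712% of counts, were dropped. Gene sums of the estimated counts were rounded. Effective lengths entered only the length-scaled counts, an alternative.

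Genes were kept with filterByExpr (minimum count 10), scaled by TMM (factors 0.933 to 1.07) and tested in edgeR 4.0.16 (R 4.3.3) by its quasi-likelihood F test, robust version, with 1 mean per group over 16 libraries (biological coefficient of variation 0.0852), checked on simulated data. P-values are two-sided, adjusted by Benjamini-Hochberg over 18944 genes, with a threshold of 0.05. For fitted changes "rose", "fell", "higher" and "lower" refer to it. For cell type markers, the level of Dgcr8 and the genes of similar profile these words compare levels, without a call at that threshold. CPM are TMM-scaled. Alternatives included DESeq2 1.42.0.

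The 10 genes and all lists were chosen with earlier results of these data known. Named besides were, by rule, up to 2 genes per list, contrast and direction with the largest change past the threshold, 7 fixed genes (Smad4, Acvr2a, Gdf3, Furin, Cer1, Skil and Id1), and the 5 most similar profiles for Lefty1, Lefty2 and Nodal; not all are described. Genes next to the Lefty pair were added after seeing its values. Some genes are not reported here, and counts over lists leave them out.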

Additional observations from a re-analysis of the deposited data

Results flagged for a closer look

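The pausing response differed between KO and WT cells (interaction term, KO minus WT, log2 scale) for 7 of the 10 genes. Of these 1 was higher and 6 were lower, beside 17.4% and 24.5% of all genes tested. The interaction was −4.45 for Lefty2, −2.94 for Lefty1, −0.89 for Tdgf1, −0.82 for Acvr2b, −0.76 for Smad7 and −0.21 for Smad2, and it was 0.26 for Nodal. These genes were chosen with such values known.

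Among the other pathway genes described, the difference was −1.03 for Tgfbr2, −0.90 for Pmepa1, −0.74 for Tgif2, −0.70 for Ski, −0.63 for Pcsk6, −0.49 for Inhbb and −0.14 for Tgif1. It was 2.26 for Gsc, 1.27 for Fst and 0.40 for Gdf3. In the BMP branch it was −1.005 for Bmp4 and 1.67 for Id2. The value of Inhbb did not pass without WT normal replicate 3 (−0.41), and that of Tgif1 did not pass when any of 9 libraries was left out (−0.135 to −0.089). Beside the Lefty pair it was −2.24 for Tmem63a, −0.23 for H3f3a and −0.14 for Sde2, the last not passing without WT normal replicate 2 (−0.10) or 3 (−0.09).

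A single library stood far from the other 3 of its group in 2 of 120 groups of 4 examined, where chance gives about 1 in 20: Fstl3 with 0.5785 CPM in 1 KO paused library and Mixl1 with 0.4314 CPM in 1 WT normal library. None of the 10 genes had such a library.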

How the results depend on the processing

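Of 1290 alternative values of the log2 fold changes of the 10 genes, 1258 kept their direction and their side of the threshold, 14 passed it anew, 4 no longer passed and 14 changed sign. Those that changed sign were all small values that did not pass the threshold in the fit described. Leaving out 1 library gave −0.006 to 0.096 for Smad2 and −0.055 to 0.092 for Smad3 on pausing in WT cells, −0.031 to 0.135 for the interaction of Smad3, −0.061 to 0.305 for Lefty1 on pausing in WT cells and −0.213 to 0.023 for Lefty1 between genotypes in normal culture. Length-scaled TPM gave −0.113 for Smad2 and −0.093 for Smad3 on pausing in WT cells, and with these counts 1 of the 10 genes was lower there against 0. A minimum mean of 1 CPM gave −0.021 for Smad2 between genotypes in paused culture, and a fit of only the groups compared gave −0.010 for Smad3 on pausing in WT cells. Replicates 1 and 2 alone gave −0.021 for Smad2, −0.143 for Smad3 and −0.353 for Lefty1 on pausing in WT cells, and 2 of the 10 genes with a positive interaction against 1. Replicates 3 and 4 alone gave −0.001 for Smad3 on pausing in KO cells and −0.221 for its interaction. The cause of these changes was not tested. For the share of Smad2-205, leaving out 1 library gave −0.53 to 0.67 percentage points between genotypes in normal culture, and as a share of TPM Smad2-201 differed by −0.71 points in paused culture.

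Deviations of same-numbered libraries from their group means had correlations of −0.226 to 0.417, above 0.1 in 13 of 24 pairs. Libraries with different numbers were not compared, so these values do not settle whether replicate numbers pair the libraries. A fit with a replicate block called 11601, 12780, 8090, 13013 and 12441 genes in the 5 contrasts, against 11505, 12727, 7936, 12923 and 12385. In it Lefty1 and Lefty2 changed by −2.82 and −4.16 on pausing in KO cells, and of the 10 genes only Acvr1b changed its call, with an interaction of −0.155 that passed. A term for replicates 1 and 2 against 3 and 4, the share of TPM and the genes next to the Lefty pair were added after seeing the data.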

Other observations

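Genes within 100 kb of the Lefty pair on chromosome 1 were read after the values of Lefty1 and Lefty2 were seen. The 4 described here are H3f3a and Sde2 before Lefty2, and Tmem63a and Ephx1 after Lefty1. On pausing in KO cells all 4 were lower, where 32.8% of all genes were, and in WT cells 2 were higher and 2 lower.

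Tmem63a, which encodes a membrane channel protein and lies next after Lefty1 (180942344 to 180975112, GRCm38), had 9.652 to 11.78 CPM in KO normal and 2.955 to 4.371 CPM in KO paused libraries (log2 fold change −1.57 ± 0.16, SE, adjusted p = 1.5e-07). In WT cells it rose by 0.67 ± 0.16 (adjusted p = 0.0014), though replicates 1 and 2 alone gave 0.27, which did not pass, and replicates 3 and 4 alone 0.995. Ephx1, an epoxide hydrolase further on, fell on pausing in both genotypes, by 1.33 ± 0.14 in WT (adjusted p = 2.3e-07) and 1.19 ± 0.14 in KO cells (adjusted p = 4.5e-07), the WT value being −1.62 from replicates 1 and 2 and −0.995 from replicates 3 and 4 alone. H3f3a and Sde2, on the other side of the pair, fell by 0.11 ± 0.04 and 0.26 ± 0.03 in KO cells, and the fall of H3f3a did not pass without KO normal replicate 1 or KO paused replicate 2 or 4 (−0.10 each). Tmem63a thus had its highest group mean in KO normal and its lowest in KO paused cells, as Lefty2 did, with smaller changes.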
